A study of Xenopus laevis with 22 samples.

Results

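The ccdc genes are genes named only for a coiled-coil domain in the predicted protein. Their members here were every target (annotated transcript) in the RNA-seq tables whose symbol is ccdc followed by a number, ccdc67 excepted. They came to 154 targets with 113 symbols, of 24383 targets in all. The symbol is a naming convention and not a gene family: coiled coils occur in proteins of unrelated function, and many ccdc symbols were given before anything else was known of the protein.

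A motile cilium is built on a basal body, which is a modified centriole, and carries an axoneme of doublet microtubules with dynein arms. Multiciliated cells of the Xenopus skin make many centrioles at once and then grow a cilium from each, and Multicilin is the coiled-coil coregulator that switches this programme on together with E2f4 or E2f5. Several ccdc proteins are parts of the axoneme, such as the ruler formed by ccdc39 and ccdc40, which sets the spacing of its repeats. Others sit at the centriole or in the satellites, granules that carry proteins to it, and many have nothing known to do with cilia.

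The RNA came from animal caps, the ectoderm of Xenopus laevis embryos, dissected at stage 10 and cultured, with 20 caps in each library. Every RNA library carried injected mRNA for Multicilin fused to the human glucocorticoid receptor hormone-binding part (MCIDAS-HGR), which 20 µM dexamethasone switched on at mid-stage 11, and there was no uninjected or uninduced control. The Multicilin group had only this mRNA, and the dnE2f4 group also had mRNA for a dominant-negative E2f4. Caps were taken after 3 h, 6 h and 9 h at 22 °C, at about stages 13, 16 and 18, with 3 libraries for each group and time. For ChIP-seq at 6 h, about 300 caps a condition carried E2f4-GFP mRNA alone or with MCIDAS-HGR, and the replicates had been pooled before peaks were called. The protocol gives dexamethasone for caps with an inducible construct, so the sets may differ in dexamethasone as well as in Multicilin. Caps are a mixture of cell types, so fewer multiciliated cells and less RNA per cell cannot be told apart. The labels number the replicates but do not say that they came from separate clutches, so p-values measure the spread between these libraries only.

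The 18 RNA libraries held 9159519 to 38099850 estimated fragments. The check on dnE2f4 was the summed level of e2f4, in CPM (counts scaled to library size), which ran from 20.9 to 36.1 CPM with Multicilin and from 3518 to 11078 CPM with dnE2f4 at 3 and 6 h. At 9 h it went against the labels in the pair numbered 2: the library labelled Multicilin had 1427 CPM and the library labelled dnE2f4 had 14.2 CPM. This pair was left out of the fit and is given separately. A further pair of dnE2f4 libraries, replicate 1 at 3 h and replicate 3 at 9 h, listed another set of 35532 targets, with 202 ccdc targets, and could enter only sums by symbol. The fit therefore held 14 libraries, with 1 dnE2f4 library at 9 h. Ectoderm markers were high throughout, at 6401 to 20505 CPM in sum over 6 genes, and the 4 mesoderm markers never passed 13.9 CPM in sum.

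By what is known of their proteins, 22 of the 154 targets were axonemal or ciliary, 22 were centriolar, satellite or spindle proteins, 53 had another known role, and 57 were given no role. Of these, 145 passed the filter on low counts and were tested, namely 22 axonemal, 21 centriolar, 47 of another role and 55 without a role. The classes were assigned from general knowledge, and a target given no role may still be axonemal or centriolar. The 9 too low to test were ccdc106, ccdc122, ccdc172, ccdc3-c, ccdc36, ccdc69-c, both copies of ccdc80 and ccdc85b-b. X. laevis is allotetraploid, so a symbol often has several targets; 36 symbols did, and they are written here with -a for the most abundant copy, -b for the next and so on. In 45 tested targets under 80% of the fragments were assigned to that target alone, and the level of such a copy is uncertain. Per transcript length, the axonemal targets were the most abundant in Multicilin caps at 6 h, with a median of 86.4 FPKM over 22 tested targets. The medians were 38.0 FPKM for the centriolar targets, 8.32 FPKM for those without a role and 2.96 FPKM for those of another role. The highest single target was ccdc151-a, an outer dynein arm docking factor, at a mean of 257.8 FPKM over 3 libraries.

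From 3 to 6 h in Multicilin caps, most axonemal and centriolar ccdc targets rose and most of those with an unrelated known role did not. Of the 145 tested, 78 rose and 19 fell (edgeR quasi-likelihood test, Benjamini-Hochberg adjusted p under 0.05 over all 20043 targets tested). Among all targets tested 52.1% changed, 25.7% rising and 26.4% falling, and against this 53.8% of the ccdc targets rose and 13.1% fell. The median log2 fold change was 1.06 over the ccdc targets and -0.03 over all targets. Of the axonemal targets 20 of 22 rose and none fell, with a median of 1.84, and of the centriolar ones 18 of 21 rose and none fell, with a median of 1.51. Of the targets with another role 9 of 47 rose and 12 fell, with a median of -0.27. Of those without a role 31 of 55 rose and 7 fell, with a median of 1.06. With library size as the only scaling 76 rose and 30 fell, beside 3935 and 7023 of all 20043 targets. With the replicate number as a block 85 rose and 29 fell, beside 6473 and 6818 of all targets. In the main fit 5153 of all targets rose and 5291 fell. Of the 97 calls, 88 held whichever of the 14 libraries was left out.

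Markers of other cell types moved in the same step in Multicilin caps. The 6 ectoderm markers went from 7533 to 8768 CPM in sum at 3 h to 12261 to 13629 CPM at 6 h, and 1 listed goblet cell marker from 60.6 to 113 CPM to 316 to 395 CPM. The 3 ionocyte markers went from 525 to 669 CPM to 113 to 224 CPM. These sums are scaled to library size alone, unlike the TMM-normalised levels of single targets. In each case the times did not overlap, and the part of these shifts in the ccdc changes was not tested.

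**Figure D1:**
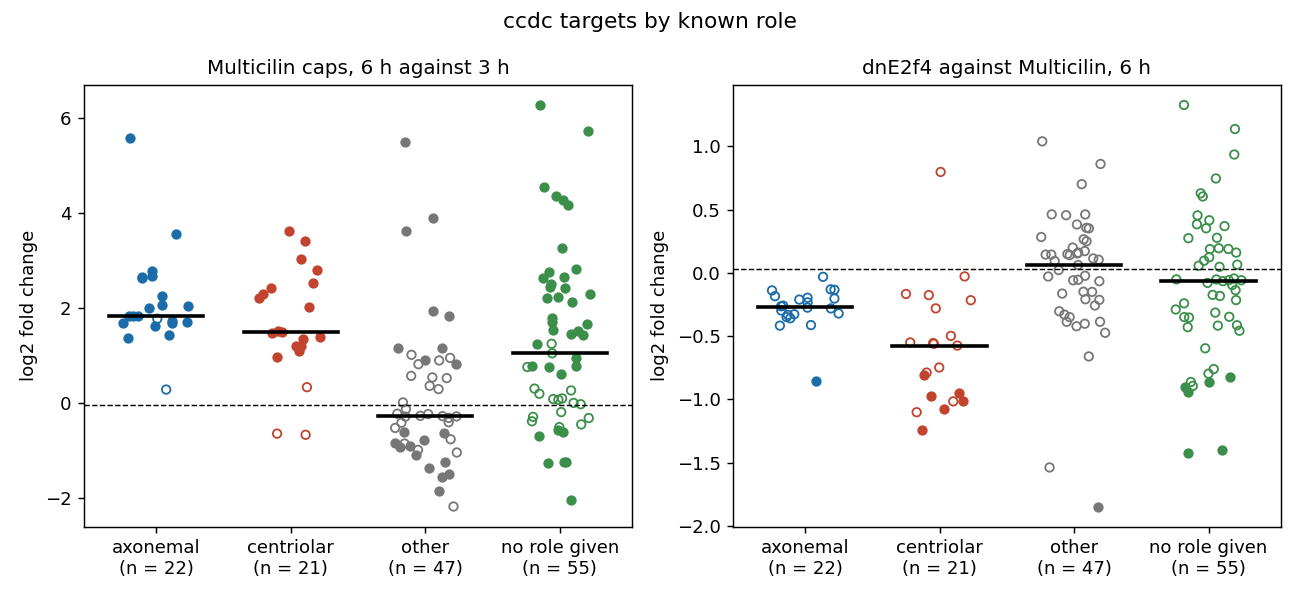
Each point is a tested ccdc target, placed by the known role of its protein, with the log2 fold change on the vertical axis. The left panel compares Multicilin caps at 6 h with 3 h and the right panel dnE2f4 with Multicilin caps at 6 h; filled points passed an edgeR adjusted p of 0.05, thick lines are medians of a class and the dashed line is the median of all 20043 targets. In the left panel the axonemal and centriolar medians lie at 1.84 and 1.51 and that of the other known roles at -0.27; in the right panel the centriolar median is -0.57 and the axonemal one -0.27. Both panels use the same Multicilin 6 h libraries.

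The axonemal ruler shows the pattern of that class. The level of ccdc40 was 90.0, 87.2 and 55.7 CPM in the 3 Multicilin libraries at 3 h, 528, 404 and 516 CPM at 6 h, and 1006 and 943 CPM at 9 h. Its partner ccdc39 had 110, 105 and 79.7 CPM at 3 h, 374, 294 and 302 CPM at 6 h, and 550 and 417 CPM at 9 h. For both, every library at 6 h lay above every library at 3 h, and every one at 9 h above every one at 6 h. The log2 fold changes from 3 to 6 h were 2.63 ± 0.19 (SE, edgeR adjusted p = 3.6e-07) for ccdc40 and 1.72 ± 0.17 (edgeR adjusted p = 5.3e-06) for ccdc39.

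Subunits of other axonemal machines rose in the same step. The nexin-dynein regulatory complex links neighbouring doublets, and its subunits ccdc65 (drc2) and ccdc135 (drc7) rose by 1.69 and 2.78 on the log2 scale. Outer dynein arm docking was represented by ccdc63, a paralogue of the docking subunit ccdc114, at 2.65, and by both copies of ccdc151, at 1.63 and 1.84. The dynein arm attachment factor ccdc103 rose by 1.38, from 20.6 to 31.2 CPM at 3 h to 50.5 to 81.0 CPM at 6 h, without overlap. Microtubule inner proteins ccdc11 (cfap53), ccdc173 (cfap210) and both copies of ccdc19 (cfap45) rose by 1.70 to 2.68.

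Basal body orientation was represented by ccdc176 (bbof1), which had the largest rise of the axonemal class. Its level was 1.31, 1.98 and 1.11 CPM at 3 h, 65.8, 61.5 and 90.3 CPM at 6 h, and 237 and 301 CPM at 9 h. It was thus near the floor at 3 h and rose again from 6 to 9 h, and its log2 fold change from 3 to 6 h was 5.59 ± 0.25 (edgeR adjusted p = 3.5e-08). Among the axonemal targets, ccdc42 and ccdc181-b did not pass. The first, of a sperm flagellum family, stayed between 2.50 and 4.44 CPM in Multicilin caps at 3 and 6 h.

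The second, one copy of a ciliary microtubule protein, differed most between replicate numbers. In replicate 1 ccdc181-b had 1.20, 3.90 and 10.8 CPM in Multicilin caps at 3, 6 and 9 h, and 3.56 and 5.85 CPM in dnE2f4 caps at 6 and 9 h. Each other library of the fit had 17.9 to 149 CPM. The other copy, ccdc181-a, showed no such split, with 27.0 to 32.2 CPM at 3 h and 94.5 to 139 CPM at 6 h in Multicilin caps. With the replicate number as a block, the rise of ccdc181-b from 3 to 6 h passed (edgeR adjusted p = 1.5e-08 against 0.27 without the block). In 52.0% of its fragments the assignment was to ccdc181-b alone, and what sets replicate 1 apart was not tested.

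Centriolar ccdc genes rose as well. In Xenopus multiciliated cells ccdc78 takes part in centriole amplification, and its level was 39.2, 50.6 and 45.4 CPM at 3 h and 264, 227 and 298 CPM at 6 h, without overlap. It rose by 2.55 ± 0.17 on the log2 scale (edgeR adjusted p = 2.2e-07). Larger rises in this class were those of ccdc146, a centriole and microtubule protein, at 3.64, ccdc18-b, a satellite protein, at 3.41, and ccdc57, a centriole and satellite protein, at 3.03. Distal appendages dock the basal body to the membrane, and both copies of their subunit ccdc41 (cep83) rose, by 1.50 and 2.29. Below 2-fold was ccdc112, a satellite protein, at 0.97. The members of this class that did not pass were ccdc69-a and ccdc69-b, which help assemble the central spindle of dividing cells, and ccdc68-b, a copy of a subdistal appendage gene. Each of these 3 stayed below 3 CPM in Multicilin caps at 3 and 6 h.

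Of the 40 rises of 4-fold or more, 18 were in targets without a given role, 10 in axonemal targets, 9 in centriolar ones and 3 in those of another role. The largest of all was ccdc153, at 0.146, 0.267 and 0.0738 CPM at 3 h, 14.1, 14.1 and 14.3 CPM at 6 h, and 54.5 and 73.9 CPM at 9 h. Its log2 fold change was 6.28 ± 0.31 (edgeR adjusted p = 4.0e-08), and because it was near 0 at 3 h the size depends on very few fragments. Among the targets without a role it was followed by ccdc17-b at 5.74, ccdc27 at 4.55, ccdc60 at 4.37, ccdc17-a at 4.28 and ccdc33 at 4.17. Among those with a role outside the cilium, ccdc170-b, a copy of a gene for a Golgi-associated microtubule stabiliser, rose by 5.49 ± 0.48, and ccdc170-a by 3.91 ± 0.22. The pair of ccdc64b copies, which encode bicdr2, rose by 3.63 and 1.84.

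Of the 19 targets that fell, 12 had a known role outside the cilium and centriole and 7 had none given. The nucleolar and chromosomal protein gene ccdc137 had 83.1, 97.5 and 117 CPM at 3 h, 32.6, 39.2 and 44.0 CPM at 6 h, and 19.5 and 23.2 CPM at 9 h. Its 3 times did not overlap, and it fell by 1.36 ± 0.18 from 3 to 6 h (edgeR adjusted p = 5.3e-05) and again by 0.85 ± 0.21 from 6 to 9 h (edgeR adjusted p = 0.0090). The splicing factor gene ccdc12-a fell by 1.49, and ccdc84 and ccdc94, also of the spliceosome, by 0.92 and 0.83. Genes of the COMMD complex of endosomes fell too, ccdc93 by 1.85 and ccdc22-b by 1.55. Of the targets without a role, ccdc117-b fell most, by 2.02, from at most 1.48 CPM at 3 h.

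Copies of 1 symbol often had the same call. Of 34 symbols with at least 2 tested targets, 24 had the same call for every copy from 3 to 6 h. Symbols with no copy called are among those counted as the same. Ambiguous fragments were divided among targets, and 45 tested ccdc targets had under 80% assigned to them alone, so copies may share reads. The same count over all symbols was not made. Only ccdc25 had opposite calls, with ccdc25-a falling by 0.56 and the less abundant ccdc25-b rising by 0.77. The calls of ccdc25-a were lost without replicate 3 at 3 h or replicate 2 at 6 h of the Multicilin group, at adjusted p up to 0.062 by edgeR.

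From 6 to 9 h in Multicilin caps most axonemal targets rose again. Of 145 tested, 59 rose and 9 fell (edgeR adjusted p under 0.05), beside 14.3% and 14.5% of all targets (28.8% in either direction). With library size as the only scaling 35 rose and 18 fell, beside 9.42% and 21.2% of all targets. That scaling moved the median of all targets to -0.18 in this step and to -0.28 from 3 to 6 h, from 0.02 and -0.03. By class, 19 of 22 axonemal, 10 of 21 centriolar, 9 of 47 of another role and 21 of 55 without a role rose. In all, 54 targets rose in both steps, and the 5 others rose only in the later one. Both steps use the same Multicilin 6 h libraries, so this overlap is not independent, and it was not counted over all targets. The largest rise was that of ccdc170-b, by 3.20 ± 0.41 to 450 and 358 CPM (edgeR adjusted p = 0.00022). The count of called ccdc targets was 42 without replicate 2 at 6 h of the Multicilin group. Calls over all targets dropped as well, from 5767 in the main fit to 4279 in this fit. Both counts also dropped without replicate 1 at 9 h, a fit with 1 Multicilin library at that time.

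The same rise from 3 to 6 h was present when dnE2f4 was there. In dnE2f4 caps 77 targets rose and 15 fell, beside 23.9% and 22.3% of all targets (46.1% in either direction). The comparison shares no library with that in Multicilin caps, and 75 targets rose in both, 96.2% of the 78 and 97.4% of the 77. The same overlap over all targets was not counted. Both comparisons come from the same fit and same-numbered libraries at 6 h deviated together, so they are not independent. No ccdc target passed the test of the difference between the groups in this change, and 1 target of 20043 did (0.00499%). At an unadjusted p under 0.05 there were 9 ccdc targets by edgeR, beside 4.13% of all targets, and by DESeq2 none passed after adjustment. Thus ccdc40 had 42.8 and 48.5 CPM in dnE2f4 caps at 3 h and 396, 361 and 331 CPM at 6 h.

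Against Multicilin caps of the same time, dnE2f4 lowered a minority of ccdc targets, among them 6 centriolar and 1 axonemal. At 6 h, 14 of 145 were lower and none higher (edgeR adjusted p under 0.05), beside 2.57% and 0.868% of all targets (3.44% in either direction). The 14 are 9.66% of those tested. At an unadjusted p under 0.05, 37 were lower and 7 higher, beside 16.3% of all targets in either direction. DESeq2 called 27 lower and 2 higher, beside 5.07% and 1.96%. Same-numbered libraries at 6 h deviated together, and with the replicate number as a block 33 were lower and 7 higher, beside 8.91% and 7.01% of all targets in that fit. Of the centriolar targets 6 of 21 were lower, with a median log2 fold change of -0.57, and of the axonemal targets 1 of 22, with a median of -0.27. With the block it was 14 centriolar and 3 axonemal targets. Those of another role had a median of 0.06 and 1 of 47 lower, and those without a role a median of -0.07 and 6 of 55 lower, against 0.03 for all targets. Whether the classes differ was not tested.

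The summed level of the 6 multiciliated-cell markers moved the same way, at 6358 to 7853 CPM with Multicilin and 4411 to 5303 CPM with dnE2f4 at 6 h. The list of 6 includes mcidas, the gene of the injected MCIDAS-HGR mRNA. The sum may therefore hold injected RNA and is not a measure of multiciliated cells alone. The 3 ionocyte markers were at 113 to 224 CPM with Multicilin and 262 to 363 CPM with dnE2f4, and the ectoderm markers at 12261 to 13629 and 13999 to 14471 CPM. The goblet cell marker was at 316 to 395 CPM with Multicilin and 478 to 777 CPM with dnE2f4. The 3 listed neural markers were at 152 to 160 and 77.3 to 86.4 CPM. The multiciliated-cell markers were also lower at 3 h, at 3182 to 5027 CPM with dnE2f4 against 6072 to 6827 CPM, and at 9 h, at 4282 to 4453 CPM against 5595 to 6700 CPM, without the pair numbered 2. All these marker sums are scaled to library size alone, without the TMM factors used for single targets. At 6 h those factors were 0.91 to 0.97 with Multicilin and 0.99 to 1.03 with dnE2f4. A gap as small as that of the ectoderm markers may therefore depend on the scaling. The part of these shifts in the ccdc differences was not tested.

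The count of 14 depended on single libraries. It was 4 without replicate 3 of Multicilin at 6 h, and 5 or 8 without replicate 2 or 3 of dnE2f4 at 6 h. Calls over all targets dropped as well, from 690 in the main fit to 205, 241 and 285 in these fits. The targets called with any 1 library left out were ccdc171, ccdc41-b, ccdc158 and ccdc153. All 14 had risen from 3 to 6 h, but both comparisons use the same Multicilin 6 h libraries, so the overlap is not independent.

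Only ccdc171 was called for dnE2f4 at all 3 times. It lies on scaffold 90041 of the JGIv7b assembly, from 3182033 to 3215040 on the minus strand, and has no given role. At 3 h it had 62.4, 59.8 and 40.1 CPM with Multicilin and 14.6 and 18.3 CPM with dnE2f4. At 6 h it had 300.0, 339 and 396 CPM with Multicilin and 121, 133 and 133 CPM with dnE2f4, and at 9 h 387 and 455 CPM with Multicilin and 140 CPM in the 1 dnE2f4 library. At no time did the groups overlap. The log2 fold changes by dnE2f4 were -1.73 ± 0.21 at 3 h (edgeR adjusted p = 0.011), -1.42 ± 0.18 at 6 h (edgeR adjusted p = 0.0017) and -1.58 ± 0.28 at 9 h (edgeR adjusted p = 0.022). It still rose with dnE2f4, to 2.68-fold below the Multicilin level at 6 h.

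Of the centriolar targets, ccdc41-b, the less abundant cep83 copy, had 34.4, 31.7 and 26.2 CPM with Multicilin and 16.2 and 15.9 CPM with dnE2f4 at 3 h. It had 163, 135 and 155 CPM and 85.8, 73.5 and 70.9 CPM at 6 h. The groups did not overlap at either time, and the log2 fold change was -0.94 ± 0.16 at 3 h (edgeR adjusted p = 0.042) and -0.98 ± 0.14 at 6 h (edgeR adjusted p = 0.0032). The copy ccdc41-a changed by -0.79 ± 0.21 at 6 h, short of the threshold (edgeR adjusted p = 0.061, and 0.00056 with the block). Since 56.9% of the fragments of ccdc41-b and 60.6% of those of ccdc41-a were assigned to 1 target alone, the copies may share reads.

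Satellite and centrosome members made up the rest of the centriolar calls. The centrosomal protein gene ccdc77 had 222, 196 and 273 CPM with Multicilin and 111, 102 and 115 CPM with dnE2f4 at 6 h, with no overlap, a log2 fold change of -1.08 ± 0.20 (edgeR adjusted p = 0.015). The satellite protein gene ccdc14 had 250.1, 298 and 394 CPM and 99.1, 140 and 160 CPM, also without overlap, and changed by -1.24 ± 0.24 (edgeR adjusted p = 0.015). For ccdc66, of satellites and cilia, the levels were 157, 154 and 199 CPM against 73.0, 97.8 and 93.4 CPM. Its log2 fold change was -0.95 ± 0.18, and those of the satellite genes ccdc138 and ccdc18-a were -1.01 ± 0.20 and -0.81 ± 0.20. The edgeR adjusted p of ccdc18-a, 0.047, lay close to the threshold and was over it in 10 of the 14 fits that left out 1 library.

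At the basal body, ccdc61, the vfl3 orthologue that acts in basal body orientation in Chlamydomonas, just missed the threshold at 6 h, at -0.75 ± 0.19 (edgeR adjusted p = 0.055, and 0.00012 with the block). The gene for centriole amplification, ccdc78, had 264, 227 and 298 CPM with Multicilin and 229, 220 and 231 CPM with dnE2f4 at 6 h. These groups overlapped, and its change of -0.22 ± 0.16 did not pass (edgeR adjusted p = 0.59, and 0.28 with the block). The estimate that went up was that of ccdc68-a, a subdistal appendage gene, from 42.9, 24.0 and 24.4 CPM to 58.6, 57.3 and 42.2 CPM. These groups overlap, and the change of 0.80 ± 0.26 passed only with the block (edgeR adjusted p = 0.14 without and 0.0021 with it).

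The 1 target called in the axonemal or ciliary class was ccdc176. It had 36.8, 41.2 and 42.5 CPM in dnE2f4 caps at 6 h against 61.5 to 90.3 CPM in Multicilin caps. It changed by -0.85 ± 0.20 (edgeR adjusted p = 0.037), and 5 of 14 fits that left out 1 library, each of them at 6 h, lost it. The ruler genes did not pass: ccdc40 changed by -0.41 ± 0.18 (edgeR adjusted p = 0.27) and ccdc39 by -0.18 ± 0.17 (edgeR adjusted p = 0.68). The level of ccdc40 with dnE2f4, 331 to 396 CPM, lay just under that with Multicilin, 404 to 528 CPM, and the ccdc39 groups overlapped. The sign was negative for all 22 axonemal targets, from -0.85 to -0.03, but these estimates share the same 6 libraries. Every dnE2f4 library lay below every Multicilin library for 6 of 22 axonemal and 14 of 21 centriolar targets, beside 10.8% of all targets. So did those of 6 targets of another role and 16 without a role. Every dnE2f4 library lay above every Multicilin library for no axonemal or centriolar target, for 5 of another role and for 7 without a role, beside 9.38% of all targets.

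Among the other called targets, ccdc153 had 6.57, 4.13 and 5.43 CPM with dnE2f4 against 14.1 to 14.3 CPM, a log2 fold change of -1.40 ± 0.21 (edgeR adjusted p = 0.0048). The level of ccdc158 was 60.4, 64.1 and 67.0 CPM against 108, 112 and 146 CPM, a change of -0.94 ± 0.16 (edgeR adjusted p = 0.0082). Neither pair of groups overlapped. The remaining calls without a given role were ccdc160, ccdc34 and ccdc177, at -0.90, -0.86 and -0.82. The Golgi and microtubule gene ccdc170-b changed most, by -1.85 ± 0.38 (edgeR adjusted p = 0.021). Its replicate 1 was the highest in each group, at 55.0 CPM with Multicilin beside 40.5 and 36.3 CPM, and at 21.5 CPM with dnE2f4 beside 7.60 and 6.79 CPM.

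**Figure D2:**
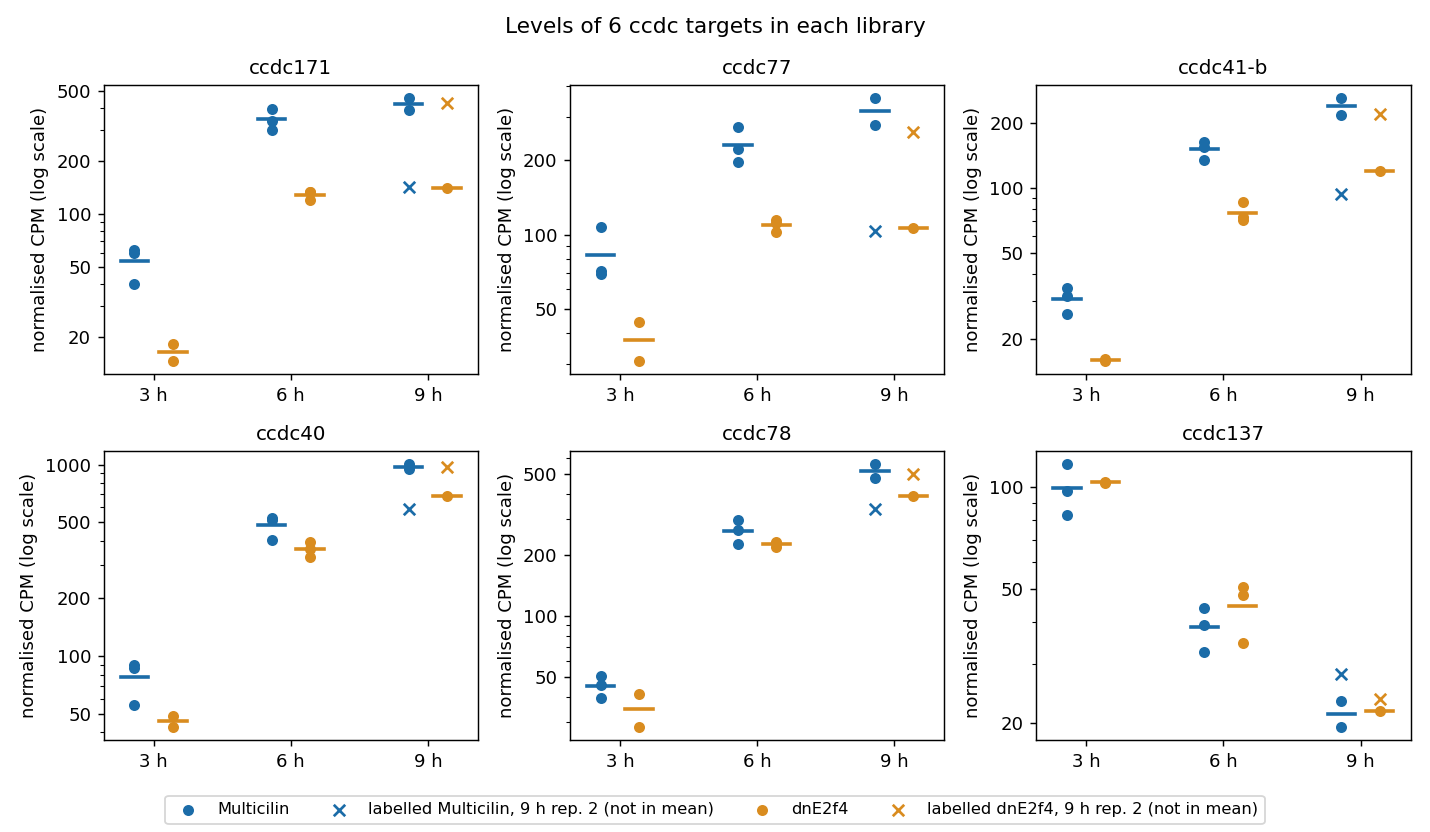
Normalised CPM on a log scale in each library for 6 ccdc targets; dots are libraries of the fit, bars their means and crosses the pair labelled replicate 2 at 9 h, which is in no mean. For ccdc171, ccdc77 and ccdc41-b the dnE2f4 libraries lie below every Multicilin library at 3, 6 and 9 h, the ccdc78 groups overlap at 6 h, and ccdc137 falls with time in both groups.

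At 3 h only ccdc171 and ccdc41-b were lower with dnE2f4 and none were higher (edgeR adjusted p under 0.05), beside 0.269% and 0.015% of all targets (0.284% in either direction). At an unadjusted p under 0.05 there were 46 lower and 1 higher, beside 7.19% of all targets in either direction. DESeq2 called 26 lower and none higher, and so did the block, beside 1.92% and 2.80% of all targets lower. The call of ccdc171 was lost without replicate 2 of Multicilin or either dnE2f4 library at 3 h. That of ccdc41-b was lost in 9 of 14 fits that left out 1 library. Calls over all targets dropped as well, from 57 in the main fit to 3 without replicate 2 of Multicilin at 3 h. They also dropped without either dnE2f4 library, each a fit with 1 dnE2f4 library at 3 h.

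At 9 h, 8 targets were lower with dnE2f4 and none higher (edgeR adjusted p under 0.05), beside 0.918% and 0.215% of all targets (1.13% in either direction). They were ccdc14, ccdc18-a, ccdc61, ccdc66, ccdc77, ccdc158, ccdc171 and ccdc85c, the last an apical junction gene. All but ccdc61 and ccdc85c were also called at 6 h. The estimates at 6 and 9 h use different libraries, but the fit shares its estimate of the spread. Every 9 h call was lost in at least 1 fit that left out a library, and that of ccdc85c in all of them. The log2 fold changes ran from -0.97 ± 0.21 for ccdc85c to -1.81 ± 0.38 for ccdc14, with edgeR adjusted p from 0.013 to 0.049. None of the 22 axonemal targets was called; 7 were lower at an unadjusted p under 0.05 and 3 by DESeq2, and the block called 2. Over all members, 37 were lower and 7 higher at an unadjusted p under 0.05, beside 14.4% of all targets in either direction. DESeq2 called 28 lower and 2 higher, beside 4.23% and 1.05% of all targets, and the block 34 lower and 6 higher, beside 6.38% and 4.48%. The 1 dnE2f4 library was taken to vary like the others. Without replicate 3 of Multicilin at 9 h, which leaves 1 library in each group, the ccdc calls were lost. Calls over all targets dropped as well in that fit.

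**Figure D3:**
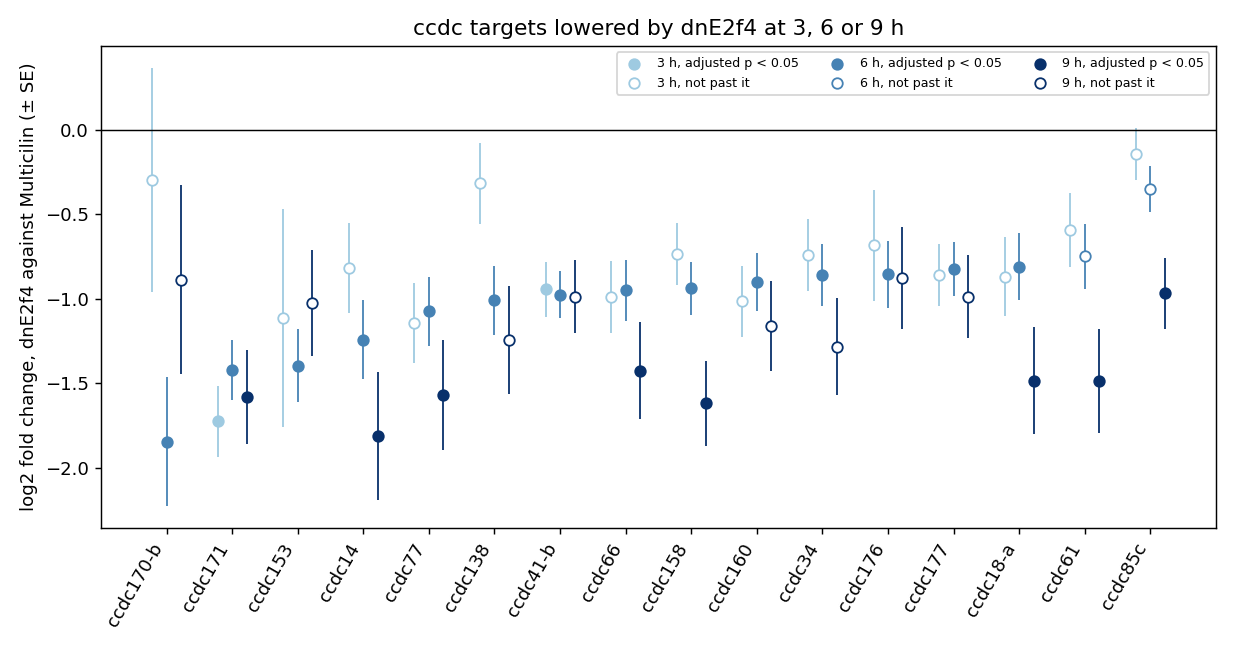
The log2 fold change with its standard error, dnE2f4 against Multicilin, at 3, 6 and 9 h for the 16 ccdc targets called at any time; filled points passed an edgeR adjusted p of 0.05. All 48 estimates lie below 0, from -1.85 for ccdc170-b at 6 h to -0.14 for ccdc85c at 3 h, and since the targets were chosen for being called, the figure describes sizes only.

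The pair labelled replicate 2 at 9 h differed in these targets as in e2f4. The library labelled Multicilin had 143 CPM of ccdc171 and the library labelled dnE2f4 had 424 CPM, against 387 and 455 CPM in the other Multicilin libraries and 140 CPM in dnE2f4 replicate 1. For ccdc77 the values were 103 and 259.9 CPM, against 277 and 357 CPM and 107 CPM. In all 14 targets lowered at 6 h, the library labelled Multicilin lay below both other Multicilin libraries and the one labelled dnE2f4 lay above dnE2f4 replicate 1. How many of all targets did the same was not counted. With all 16 libraries in the fit and the labels as deposited, no ccdc target was called for dnE2f4 at 3, 6 or 9 h. Nor was any other of the 19567 targets tested in that fit.

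Lists of partners give the ccdc classes a setting, beside 25.7% of all targets rising from 3 to 6 h and 2.57% lower with dnE2f4 at 6 h. The first list held 46 tested targets of dynein docking and dynein arm assembly, the nexin-dynein regulatory complex and other axonemal parts. All 46 rose from 3 to 6 h, with a median of 2.31. With dnE2f4 at 6 h 5 were lower, among them the assembly factor genes dnaaf1 and dnaaf2, and the median of the 46 was -0.39. None of these was lower at 3 h and 1 at 9 h, and with the replicate block 18, 24 and 15 were lower at 3, 6 and 9 h. Of 53 tested targets of centriole assembly and satellites, 39 rose and 6 fell, with a median of 1.39, and 31 were lower with dnE2f4 at 6 h, with a median of -0.82. Lower targets of the second list numbered 10 at 3 h and 22 at 9 h. With the block they numbered 27, 37 and 36 at the 3 times. At 6 h, without the block, the second list held a larger share of lowered targets than the centriolar ccdc class, 58.5% against 28.6%. With the block the counts were 37 of 53 and 14 of 21, and neither difference was tested.

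E2f4-GFP peaks lay at the starts of members of every class. A start counted as bound when any base of a peak fell within 1 kb of it. With Multicilin 42 of 154 ccdc targets had a peak (27.3%, beside 19.9% of all targets), and without it 49 (31.8%, beside 27.4%). The sets hold 12778 and 15693 peaks from 15313243 and 24997566 tags, so they differ in depth, and with pooled replicates neither share has an error. With Multicilin a peak lay at 8 of 22 axonemal, 8 of 22 centriolar, 9 of 53 of another role and 17 of 57 targets without a role. In the centriole list 30 of 53 targets had one (56.6%). The centre lay a median of 83.5 bases from the start, and within 250 bases for 33 of the 42. Peaks of both sets overlapped by at least 1 base at 27 targets, 64.3% of the 42 and 55.1% of the 49. Over all targets they overlapped at 3376, of 4850 with a peak with Multicilin and 6689 with a peak without it.

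**Figure D4:**
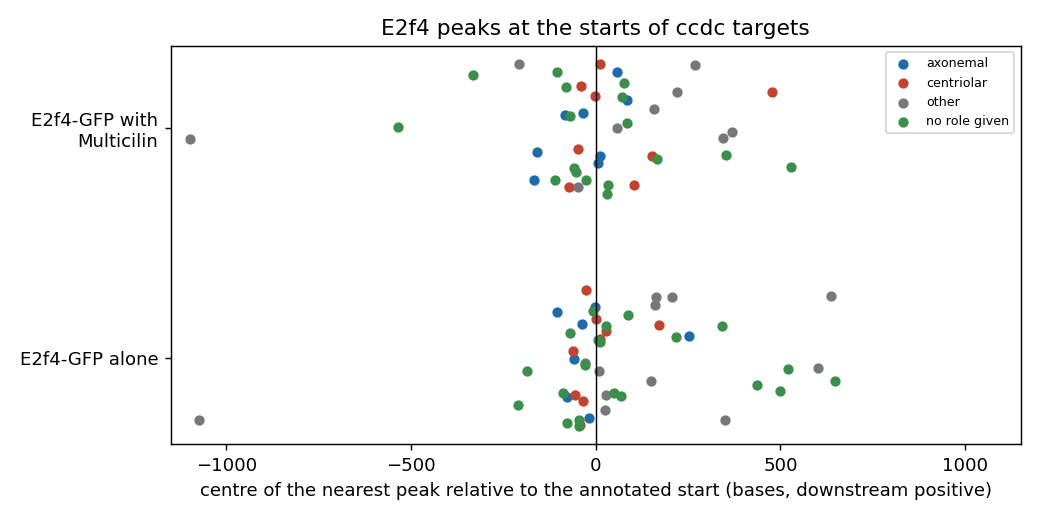
Position of the nearest E2f4-GFP peak centre relative to the annotated start of each ccdc target with a peak, in bases, for caps with E2f4-GFP alone (49 targets) and with Multicilin (42 targets). Points are coloured by known role and spread vertically at random within a row; with Multicilin 33 of 42 centres lie within 250 bases of the start.

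The calls were counted separately for targets with and without a peak, and the difference between these was not tested. Of the 42 tested targets with a peak in the Multicilin set 24 rose from 3 to 6 h and 6 were lower with dnE2f4 at 6 h, with a median dnE2f4 effect of -0.18. Of the 103 without one 54 rose and 8 were lower, with a median of -0.17. Over all targets 25.7% rose and 2.57% were lower, and these shares were not split by peak. The lowered targets with a peak were ccdc171, ccdc41-b, ccdc77, ccdc66, ccdc18-a and ccdc158. At ccdc77, on scaffold 58790 from 332316 to 348708 on the plus strand, the peak lay from 332139 to 332349 with Multicilin and from 332247 to 332443 without. At ccdc171 a peak was called only with Multicilin, from 3215046 to 3215256 on scaffold 90041, next to the start of this minus-strand gene. For ccdc138 one was called only without Multicilin, from 4762879 to 4763075 on scaffold 17127, centred on the start. The other lowered targets, ccdc14, ccdc153, ccdc160, ccdc170-b, ccdc176, ccdc177 and ccdc34, had no peak in either set.

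Axonemal targets with a peak in the Multicilin set included ccdc40, ccdc65, ccdc103 and ccdc96, an axonemal partner of ccdc113, none of which was called for dnE2f4 at any time. Among the 19 targets that fell from 3 to 6 h, 4 had a peak in this set, beside 19.9% of all targets. They were ccdc117-a, ccdc137, ccdc25-a and ccdc28a.

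A peak at a shared start cannot be given to 1 gene, and 15 ccdc targets had a divergent neighbour starting within 1 kb. From 3 to 6 h both genes rose in 3 pairs, both fell in 1, namely ccdc137 and oxld1, and they were called in opposite directions in 4. In the other 7 at least 1 gene was not called. The start of ccdc40 is shared with tbc1d16, a Rab GTPase-activating protein gene, which also rose from 3 to 6 h, by 1.79 (edgeR adjusted p = 3.8e-06) beside 2.63 for ccdc40. The start of ccdc103 is shared with the splicing factor gene eftud2, which fell by 0.43 (edgeR adjusted p = 0.047) while ccdc103 rose by 1.38. Opposite directions were also called for ccdc157 and sf3a1, for ccdc146, whose neighbour fam185a fell by 0.59 (edgeR adjusted p = 0.0046), and for ccdc94, which fell while its neighbour efcab2, of the nexin-dynein regulatory complex, rose by 1.98 (edgeR adjusted p = 5.7e-06). Reads carry no strand, so fragments from an overlap of divergent transcripts cannot be assigned to one of them.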

How the data were processed

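RNA-seq of 18 animal-cap libraries and pooled E2f4-GFP ChIP-seq were used. The authors deposited, for each library, a table of estimated counts (expected counts made by eXpress, which divides ambiguous fragments among targets), uniquely assigned counts and FPKM, as its column names show per the file headers. The submitters' processing notes also name STAR, Bowtie and Bowtie2, DESeq and HOMER, without version or role. HOMER called the deposited peaks on replicates and inputs that had been pooled (FDR 0.001, at least 4-fold above input and above the surrounding region, per the file headers). The score in these deposited peak lists is constant and ranks nothing. Target and peak positions are on JGIv7b scaffolds. The kit keeps no strand, per the labels' protocols.

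Estimated counts of 14 libraries were rounded, filtered with filterByExpr, normalised by TMM and tested with edgeR 4.0.16 (robust quasi-likelihood, group means, R 4.3.3), with Benjamini-Hochberg adjustment over 20043 targets. Levels of single targets are TMM-normalised CPM, and ± is the SE of a log2 fold change. The values for e2f4, the marker sums and the sums over ccdc targets are CPM of the library size, without TMM factors. DESeq2 1.42.0 was the alternative tool. The fitting was tested on simulated data. No 2 libraries of a group agreed within counting noise (chi-square per degree of freedom at least 14.7).

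The ccdc members, their classes by known role, the partner lists, the 14 libraries and the tests were chosen with earlier results of these data known. Any tested axonemal or centriolar member could be named. Of the others, those named were the 8 largest rises and falls called, and every member called for dnE2f4 at any time; the copies of ccdc25, the neighbours of ccdc genes, ccdc94, ccdc84 and the ccdc64b pair were named after their values were seen. Deviations from the group means correlated between same-numbered libraries at 6 h (0.74, 0.53 and 0.60), so the numbers pair them. At 3 h they were 0.22 and 0.40. Since no label explains the numbers, the block rests on the assumption that a number means the same at every time. Of 113 symbols 81 matched the RefSeq gene table, and no sequence was used. Libraries labelled replicate 2 at 9 h and those on another target set were left out of the fit.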

Additional observations from a re-analysis of the deposited data

Results flagged for a closer look

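The library labelled Multicilin 9 h replicate 2, which entered only the alternative fit of 16 libraries, had e2f4 at 1427 CPM, above the 14.1 and 14.4 CPM of the other Multicilin libraries at that time. In it 14 of the 14 ccdc targets lowered by dnE2f4 at 6 h lay below both other Multicilin libraries at 9 h, a count not made over all targets. The ccdc targets summed to 11319 CPM of its library size, against 17184 and 16967 CPM in those libraries and 12735 and 11313 CPM in the dnE2f4 libraries numbered 1 and 3; the library labelled dnE2f4 replicate 2 had 16952 CPM. These values follow e2f4 and not the labels.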

How the results depend on the processing

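Counts of called ccdc targets from 3 to 6 h stayed within 1.5 times of 97 in Multicilin caps (90 to 98 with 1 library left out) and of 92 in dnE2f4 caps (81 to 93), and the difference between these changes gave 0 throughout. From 6 to 9 h 68 became 40 with all 16 libraries as labelled and 45 with only the groups compared (40 to 70 with 1 library left out). For dnE2f4 at 3 h 2 became 1 by library size alone, 26 with DESeq2, 26 with the replicate block, 0 with 16 libraries, 0 with only the groups compared and 6 summed by symbol (0 to 13 with 1 library left out). At 6 h 14 became 29 with DESeq2, 40 with the block, 0 with 16 libraries and 8 by symbol (4 to 18 with 1 library left out). With the block in the 6 h groups alone, a fit chosen after seeing the data, it became 59 of 138. That fit called 4294 of all 17864 targets tested. At 9 h 8 became 30, 40, 0 and 17 in the same order of DESeq2, block, 16 libraries and symbols, and 0 with only the groups compared (0 to 11 with 1 library left out; no value without the 1 dnE2f4 library). The counts by symbol are out of 98 ccdc symbols, in a fit of 16 libraries that includes those on another target set. In it 62, 360 and 498 of all 11111 symbols were called at 3, 6 and 9 h. The fit of 16 libraries with labels as deposited called none of all 19567 targets for dnE2f4 at these times. With only the groups compared, 2 of all 18414 targets were called at 3 h. Calls over all targets dropped in that setting at 9 h as well, with 1 dnE2f4 library. The causes of these shifts in counts were not tested. Of the named members checked, none called in the main fit changed sign. For those not called, a change of sign was not scored. Beside the dnE2f4 counts, the block moved the falls from 3 to 6 h from 19 to 29 and from 6 to 9 h from 9 to 19, and no total of rises and falls over time by over 1.5 times. Over all targets the block moved the falls in these steps from 5291 to 6818 and from 2904 to 4529. Counts of peaks at starts stayed within 1.5 times under other windows. Members near 0 CPM at 3 h, such as ccdc153, have folds limited by depth.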
